A study of Homo sapiens with 11 samples.

Results

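The 42 genes described here are listed as ciliopathy and cystic kidney genes, and many of them cause such diseases when mutated. They were taken by name from a fixed list, not by any measured value, though the list was chosen with earlier results of these data known. They are 42 of the 19645 protein-coding genes found both in the RNA-seq files and in the annotation of GRCh37 (hg19). They were placed in 7 groups by the place or role of their products: 4 polycystic disease genes, 3 genes of the inversin compartment, 11 of the transition zone, 5 of the centriole and its distal appendages, 7 of intraflagellar transport and kinesin-2, 9 of the BBSome and its partners, and 3 nuclear and other nephronophthisis genes. The genes lie on 17 chromosomes. All samples came from HK2, an established line of immortalised human kidney tubule cells that the labels call proximal tubular epithelial cells, grown under 1 condition in DMEM-F12 medium with 10% FBS and 0.05% DMSO. Total RNA was sequenced in 2 libraries, and the histone marks H3K4me3, H3K27ac and H3K27me3 were mapped by ChIP-seq, with 2 replicates of each. No untreated or diseased group exists in these files, so the genes are compared with all protein-coding genes and with each other, and no test between conditions was possible. Nothing in the labels says that the replicates came from separate cultures, so their spread may be technical. A single cell line was studied, and the files measure RNA and histone marks, not cilia.

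The primary cilium is a single antenna on the surface of most tubule cells, built on a centriole and held by a gate called the transition zone. Motor proteins move cargo along it by intraflagellar transport, and the BBSome carries membrane receptors out of it. The polycystins lie in its membrane, and loss of many of these genes gives cysts, nephronophthisis or wider syndromes such as Joubert, Meckel and Bardet-Biedl syndrome. H3K4me3 marks the start sites of genes, H3K27ac marks active start sites and enhancers, and H3K27me3 is a mark of repressed chromatin. Some RFX factors are known to bind a sequence called the X-box in the promoters of many ciliary genes.

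Promoter sequences were taken from RefSeq (GRCh38.p14), as the 250 bases before and 50 bases after each gene's start. Windows were found for 38 of the 42 genes, and no window for TMEM67, TCTN2, BBS9 or GLIS2. All 38 windows were matched letter for letter in GRCh37, the build of the peaks. A peak of H3K4me3 touched 36 of the 38 windows in replicate 1 and 37 in replicate 2, beside 67.9% and 69.6% of the 15006 windows of protein-coding genes that were matched in the same way. A peak of H3K27ac touched 35 and 17, beside 62.8% and 41.4%. None was touched by H3K27me3, beside 8.06% and 7.12%. The X-box was searched on both strands as GTNNCCNNNGNAAC. It was found in 3 of the 38 windows (7.89%), those of B9D1, AHI1 and ARL6, beside 385 of 15232 windows of protein-coding genes (2.53%). In the windows of other genes of the pathway it was found in 5 of 50 (10%), and in those of motile cilia genes in 6 of 16 (37.5%). The matches are shown here because they are the only ones among these genes, on the strand of the gene, with the 14 bases of the match in capitals.
B9D1: ctgggactGTTACCTTGGCTACtggctccc
AHI1: acgcatcgGTCGCCATGGGAACggcggcgt
ARL6: aagctcctGTTGCCAAGGGAACggtgcctg
The stretches lie at chr17:19378085-19378114 (minus strand), chr6:135497787-135497816 (minus strand) and chr3:97764726-97764755 (plus strand) of GRCh38.p14. The matches begin 193, 68 and 24 bases before the RefSeq start. In B9D1 the motif reads on the strand opposite to the gene, and in ARL6 the letters match on both strands. GENCODE places each stretch in or across an exon of a longer transcript of the same gene. In GRCh37 all 3 matches lay inside H3K4me3 peaks of both replicates, and those of B9D1 and AHI1 inside H3K27ac peaks of both, while that of ARL6 was covered by H3K27ac in replicate 1 alone. A match is a description of letters, and no binding of an RFX factor was measured.

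The windows were rich in CpG, the dinucleotide that is frequent in many active promoters. The median window of the 38 genes held 26.5 CpG, beside 22 over all protein-coding genes, with 62.8% and 63% G and C. The ratio of observed to expected CpG was above 0.6 in 32 of the 38 windows (84.2%) and in 66.7% of all windows. The 250 bases before the start of PKD2, PKHD1 and ZNF423 are shown because their start sites carried 3 different combinations of marks, described below with their RNA levels. Each CpG is in capitals.
PKD2: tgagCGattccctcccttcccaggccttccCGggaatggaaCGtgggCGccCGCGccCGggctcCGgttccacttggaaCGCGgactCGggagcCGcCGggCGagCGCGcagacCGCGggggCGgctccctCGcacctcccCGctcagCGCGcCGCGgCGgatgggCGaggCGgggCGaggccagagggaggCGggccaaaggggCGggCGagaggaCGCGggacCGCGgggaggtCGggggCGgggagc
PKHD1: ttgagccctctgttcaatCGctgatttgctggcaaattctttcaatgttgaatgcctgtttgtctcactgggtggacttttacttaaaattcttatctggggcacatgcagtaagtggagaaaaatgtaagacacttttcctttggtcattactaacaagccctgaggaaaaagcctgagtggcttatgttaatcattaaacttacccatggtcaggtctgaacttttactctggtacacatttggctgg
ZNF423: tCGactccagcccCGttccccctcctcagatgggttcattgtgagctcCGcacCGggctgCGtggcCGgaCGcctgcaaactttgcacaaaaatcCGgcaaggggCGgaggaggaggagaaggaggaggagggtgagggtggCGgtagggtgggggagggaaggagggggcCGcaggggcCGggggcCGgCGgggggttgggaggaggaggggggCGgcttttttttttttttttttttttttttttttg
The first stretch is chr4:88007385-88007634 (plus strand) and the second chr6:52087614-52087863 (minus strand), both RefSeq on GRCh38.p14. The third is chr16:49890024-49890273 (minus strand) of GRCh37, before the start of the canonical GENCODE transcript, since the RefSeq window of ZNF423 lies at another start. They hold 38, 1 and 15 CpG. The PKD2 window of 300 bases was covered whole by H3K4me3 in both replicates, the PKHD1 window by no peak of any mark, and the ZNF423 stretch by H3K4me3 alone, in both replicates.

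Of the 42 genes, 40 (95.2%) reached 1 FPKM or more in each library, beside 58.8% of all protein-coding genes. FPKM counts fragments scaled by transcript length and by the mapped total of the library, summed here over the transcripts of a gene, so it can be compared between genes. PKHD1 and ZNF423 were listed at 0 in both libraries. Median FPKM was 5.6 over the 42 genes and 3.32 over all protein-coding genes, while among genes that reached an FPKM of 1 the order was the opposite, at 6.05 for the 40 genes and 11.1 for all 11549. Of the 40, 17 had a mean FPKM under 5, 22 lay from 5 to 20, and only GANAB was above 20. The larger value exceeded the smaller by more than 1.5-fold between the libraries for BBS2 alone, 1 of 40 genes (2.5%), beside 5.07% of all genes in the same range of FPKM. Over the 40 genes the median fold between libraries was 1.1. Dividing coverage by FPKM gave about 5.67 Gb of aligned sequence for library 1 and 5.52 Gb for library 2, and the 40 genes had a summed coverage of 7.52 to 1160 reads per base. The files used here give no read counts, so no detection limit can be given for the genes listed at 0.

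**Figure D1:**
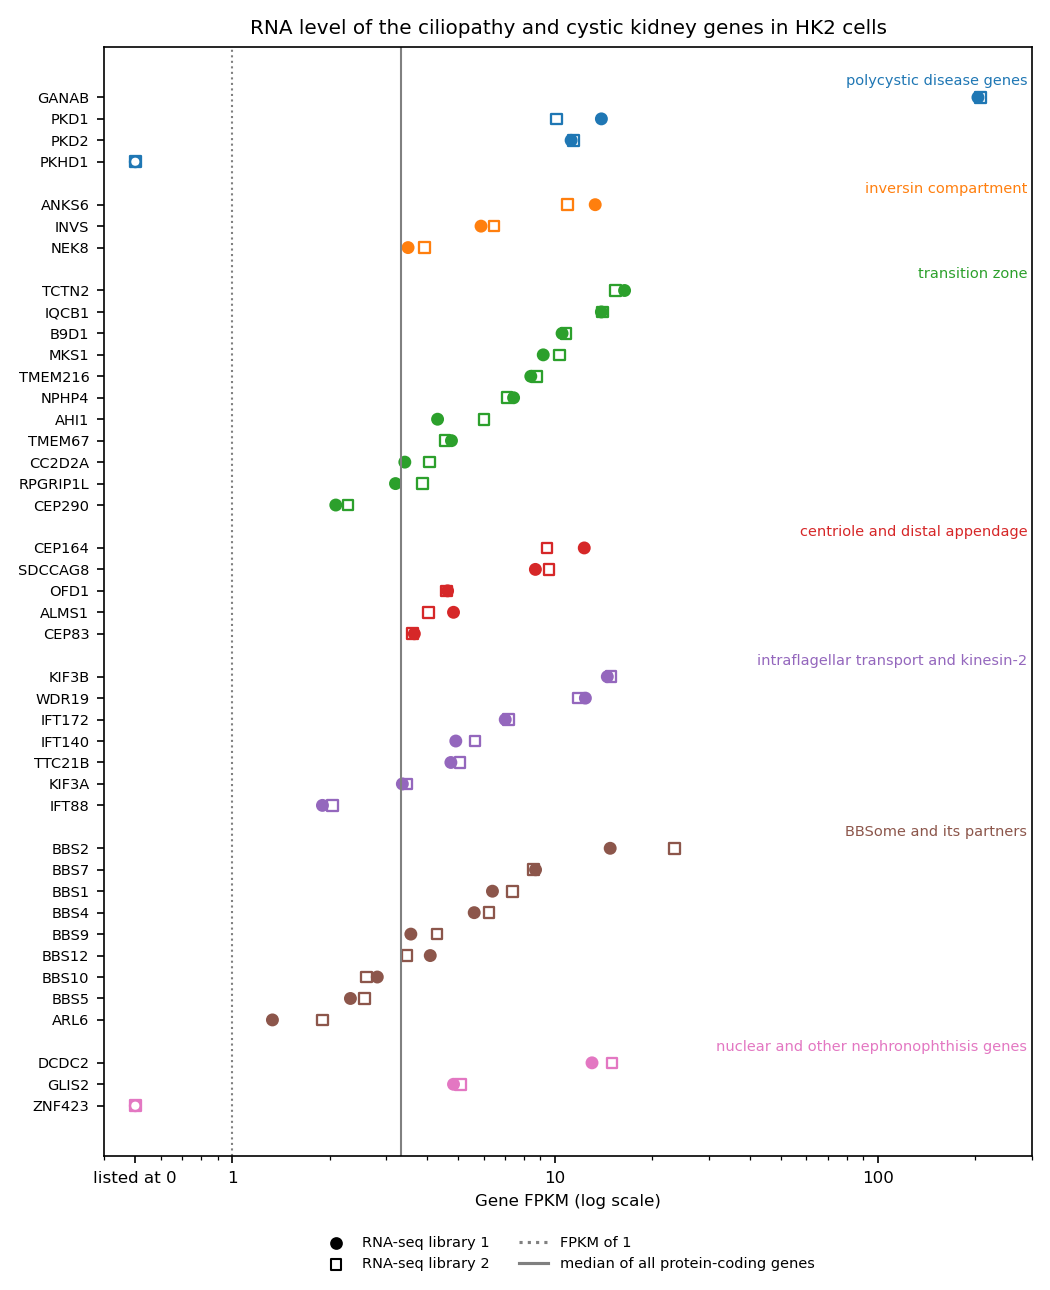
Gene FPKM (log scale) of each of the 42 genes in RNA-seq library 1 (filled circles) and library 2 (open squares), by role group, with genes listed at 0 drawn at the left edge. A dotted line marks an FPKM of 1 and a solid line the median of 3.32 over all protein-coding genes. GANAB stands at 204 and 208, PKHD1 and ZNF423 are at 0, and the other 39 genes lie between 1.33 and 23.4.

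Among the polycystic disease genes, PKD1 encodes polycystin-1, a large receptor-like membrane protein, and PKD2 its partner channel polycystin-2. PKD1 (ENSG00000008710, chr16:2138709-2185899, minus strand) was at an FPKM of 13.9 in library 1 and 10.1 in library 2. PKD2 (ENSG00000118762, chr4:88928787-88998929, plus strand) was at 11.2 and 11.4. In summed FPKM the partners were thus at like levels, and their ranges overlapped. The means were 12 ± 2.65 for PKD1 and 11.3 ± 0.152 for PKD2 (SD, n = 2). In protein-coding transcripts alone they were not alike, with PKD1 at 5.54 and 4.08 and PKD2 at 10.8 and 10.9. GANAB encodes the catalytic subunit of glucosidase II, an enzyme of glycoprotein folding in the endoplasmic reticulum. Its FPKM was 204 and 208, at percentile 99 of all protein-coding genes. PKHD1, the gene of recessive polycystic kidney disease (ENSG00000170927, chr6:51480097-51952411), was at 0 in both libraries.

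The FPKM of PKD1 needs care, because its first 33 exons have near-identical copies in pseudogenes on the same chromosome. Over the exons of its canonical transcript, coverage summed over all PKD1 transcripts averaged 33.9 and 21.1 reads per base in exons 1 to 33, and 36.1 and 33.5 in exons 34 to 46, which are not in the copies. In library 1 both stretches were covered alike, and in library 2 the copied exons were lower. The pseudogenes themselves were assigned reads, with PKD1P1 at 5.92 and 6.42, PKD1P5 at 2.65 and 3.07 and PKD1P6 at 11.7 and 11.5. How reads were divided between the gene and its copies cannot be read from the files. An exon of PKD1 also overlaps TSC2, the tuberous sclerosis gene, on the opposite strand, and no source states whether counting used strand.

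The inversin compartment is a segment of the lower cilium, and its 3 genes cause nephronophthisis. INVS, which encodes inversin, was at an FPKM of 5.89 and 6.46. NEK8, the kinase of the compartment, was at 3.5 and 3.93. ANKS6, an activator of NEK8, was at 13.3 and 10.9, and its values did not overlap those of the other two. All 3 carried H3K4me3 and H3K27ac at a start site in both replicates.

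All 11 transition zone genes reached an FPKM of 1, with a median of 7.26. The highest was TCTN2, a tectonic, at 16.4 and 15.4, followed by IQCB1 (nephrocystin-5) at 13.9 and 14. Both lay above the remaining 9 in each library. B9D1 and MKS1, B9-domain proteins of one complex, were close to each other, at 10.5 and 10.8 for B9D1 and at 9.18 and 10.3 for MKS1. TMEM216 was at 8.4 and 8.74 and NPHP4 at 7.43 and 7.09. AHI1, which encodes jouberin, had 4.32 and 6.02, and TMEM67, which encodes the receptor-like protein meckelin, 4.77 and 4.56, so their ranges overlapped. The lowest were CC2D2A at 3.42 and 4.08, RPGRIP1L at 3.2 and 3.88, and CEP290 at 2.09 and 2.28. In summed FPKM CEP290, a scaffold of the transition zone, lay below every other gene of the group in both libraries. In protein-coding transcripts alone CC2D2A was lower in library 1, at 0.784 against 2.09 for CEP290. In library 2 they were at 2.29 and 2.28.

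Among centriole genes the median was 4.62. CEP164, which anchors the centriole to the membrane, was at 12.3 and 9.43, and SDCCAG8 was at 8.68 and 9.57. OFD1, a protein of centriolar satellites and distal centrioles, was at 4.64 and 4.61, ALMS1, mutated in Alström syndrome, at 4.84 and 4.05, and CEP83 at 3.66 and 3.62. CEP83 is the distal appendage protein on which CEP164 loading depends, and in summed FPKM it was the lowest of the 5 in both libraries. In protein-coding transcripts alone OFD1 was lower, at 1.38 and 0.926, against 1.65 and 1.21 for CEP83.

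Intraflagellar transport uses complex A for retrograde and complex B for anterograde movement. Of complex A, WDR19 had an FPKM of 12.4 and 11.8, IFT140 of 4.92 and 5.64, and TTC21B of 4.75 and 5.07. In protein-coding transcripts alone WDR19 had 2.92 and 1.92, IFT140 3.61 and 2.59, and TTC21B 3.84 and 4.33. Of complex B, IFT172 was at 7 and 7.16, and IFT88, which mice need to build cilia, was at 1.9 and 2.04. KIF3B and KIF3A are the motor subunits of kinesin-2, and they differed. KIF3B stood at 14.5 and 14.9 and KIF3A at 3.36 and 3.47, with no overlap between the subunits.

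The BBSome genes had the lowest group median, 3.94. BBS2 was highest and least alike between libraries, at 14.8 and 23.4, a fold of 1.58. BBS7 was at 8.69 and 8.55, BBS1 at 6.39 and 7.37, BBS4 at 5.61 and 6.23, BBS9 at 3.57 and 4.3, and BBS5 at 2.32 and 2.56. In summed FPKM the subunits of this single complex thus spread from 2.32 to 23.4. In protein-coding transcripts alone they ran from 1.63 at BBS4 to 7.33 at BBS7, with BBS2 at 5.98 and 6.3. The chaperonin-like genes BBS12 and BBS10, whose products help to assemble the BBSome, were at 4.1 and 3.47 and at 2.81 and 2.6. ARL6, the small GTPase that recruits the BBSome to membranes, was at 1.33 and 1.9, the lowest summed FPKM of all genes not listed at 0. In protein-coding transcripts alone ARL6 had 1.26 and 1.45. By that measure CC2D2A had less in library 1, at 0.784, and OFD1 in library 2, at 0.926.

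Of the nuclear and other nephronophthisis genes, DCDC2, which encodes a doublecortin-domain protein that binds microtubules, was at 13 and 15. GLIS2, a zinc-finger transcription factor, was at 4.84 and 5.08. ZNF423 (ENSG00000102935, chr16:49521435-49891830, minus strand), another zinc-finger factor, was at 0 in both libraries.

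At the start sites, 41 of the 42 genes (97.6%) had an H3K4me3 peak within 1 kb of an annotated transcription start site (TSS) in both replicates, beside 70.3% of all protein-coding genes. The TSS of the canonical transcript itself lay inside an H3K4me3 peak in both replicates for the same number, 41, beside 63.6% of 19547 genes with a canonical TSS. PKHD1 was the exception by either measure. An H3K27ac peak lay within 1 kb of a TSS in both replicates for 28 genes (66.7%), beside 55% of all genes. H3K27me3 was present in both replicates at ZNF423 alone (2.38%), beside 11.4% of all genes. H3K4me3 and H3K27ac in both replicates with H3K27me3 in neither, the pattern of an active start site, was found at 27 genes (64.3%) and at 51.4% of all genes.

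**Figure D2:**
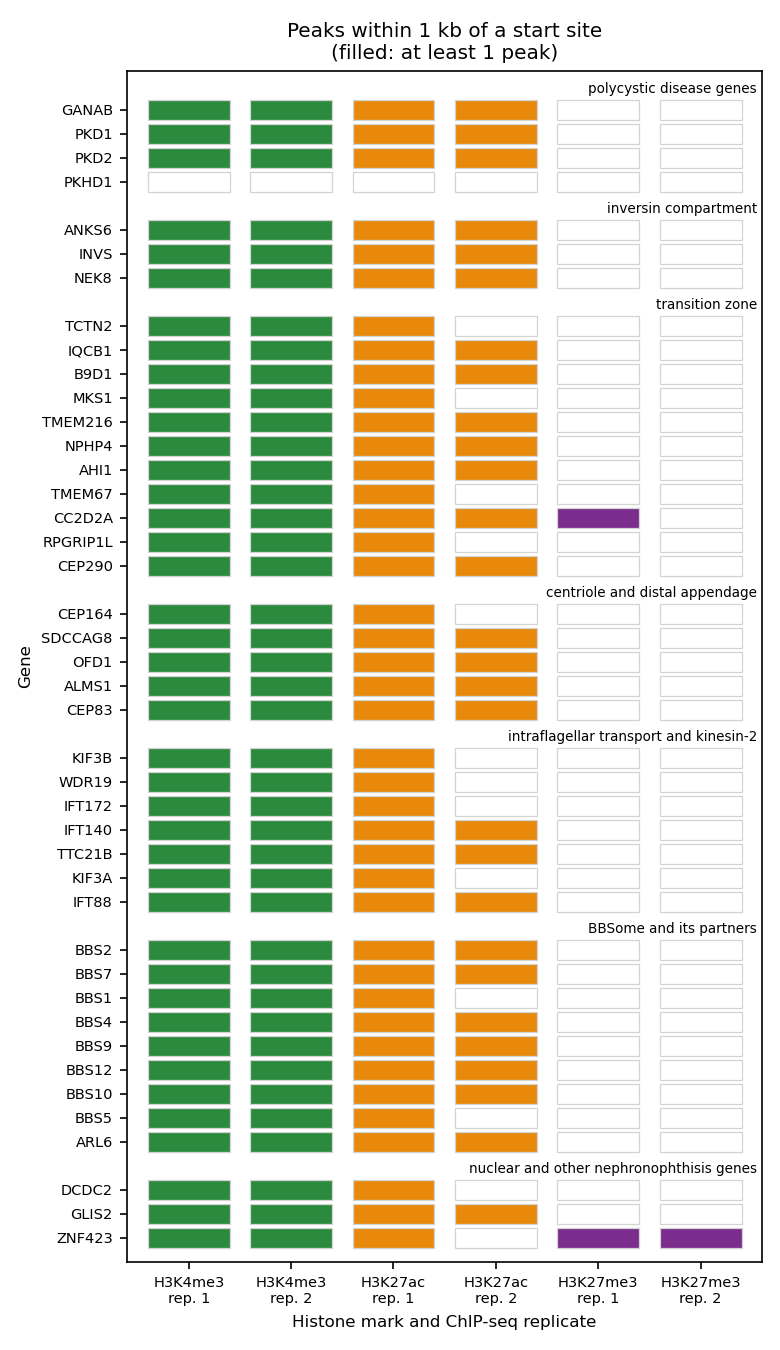
Peaks within 1 kb of a TSS of the 42 genes (rows, by role group) for each mark and replicate (columns); a filled cell stands for at least 1 peak. H3K4me3 is filled in both replicates for 41 genes, H3K27ac for 41 in replicate 1 and 28 in replicate 2, and H3K27me3 for ZNF423 in both replicates and CC2D2A in replicate 1.

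The replicates of H3K27ac differed at these genes. Replicate 1 had a peak at 41 of them and replicate 2 at 28, all of which also had one in replicate 1. The 13 genes with replicate 1 alone, beside 12.5% of all genes with that pattern, were RPGRIP1L, TMEM67, MKS1, TCTN2, CEP164, WDR19, IFT172, KIF3A, KIF3B, BBS1, BBS5, DCDC2 and ZNF423. Of genes with a replicate 1 peak, 31.7% of these and 18.5% of all genes lacked one in replicate 2. In the intraflagellar transport and kinesin-2 group only 3 of 7 genes had both, and both kinesin-2 motor subunits lacked the second. The H3K27ac list of replicate 2 is shorter and its peaks narrower, with 38639 peaks of median width 657 bp against 57761 of 1357 bp in replicate 1. The lists give no peak height, so whether a peak of replicate 2 missed its threshold narrowly or widely cannot be told apart. For H3K27ac the study states a lower fraction of reads in peaks in replicate 2 than in replicate 1, and its part was not tested. For H3K4me3 the list of replicate 2 is the longer, with 73942 peaks against 29130, and for H3K27me3 it is the shorter, with 32746 against 45924.

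The distance from the canonical TSS to the nearest H3K27ac peak of replicate 2 varied widely among these 13. It was 209984 bp at ZNF423, 136825 bp away at WDR19, 104679 bp at BBS5, 48538 bp at KIF3B, 40914 bp at RPGRIP1L and 39031 bp at KIF3A. The shortest were 2182 bp at DCDC2 and 5450 bp at MKS1. With a window of 2 kb around any TSS, CEP164 and IFT172 also counted as marked in both replicates. Where replicate 2 did have a peak near a TSS, it often lay beside the canonical TSS and not over it. The canonical TSS was inside an H3K27ac peak in 38 genes in replicate 1, beside 59.9% of all genes, and in 10 in replicate 2, beside 28.9%. At PKD1, for example, the replicate 2 peak was 12 bp away, at PKD2 104 bp and at IFT140 236 bp. A window of 500 bp in place of 1 kb left the count at 28.

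Median RNA level was not higher in the genes where both H3K27ac replicates had a peak. The 27 with the active pattern had a median FPKM of 5.28, and the 12 with H3K4me3 in both replicates and H3K27ac in replicate 1 alone, ZNF423 left out for its H3K27me3, had 8.42. Over all protein-coding genes the order was the opposite, at 11.8 for 10093 genes and 3.97 for 1666. The ranges of the 42 overlapped widely, from 1.61 to 206 in the first class and from 2.44 to 15.9 in the second, and the difference was not tested. TCTN2, KIF3B and DCDC2, 3 of the most abundant of these RNAs, were in the second class, as was BBS5 at its lower end.

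**Figure D3:**
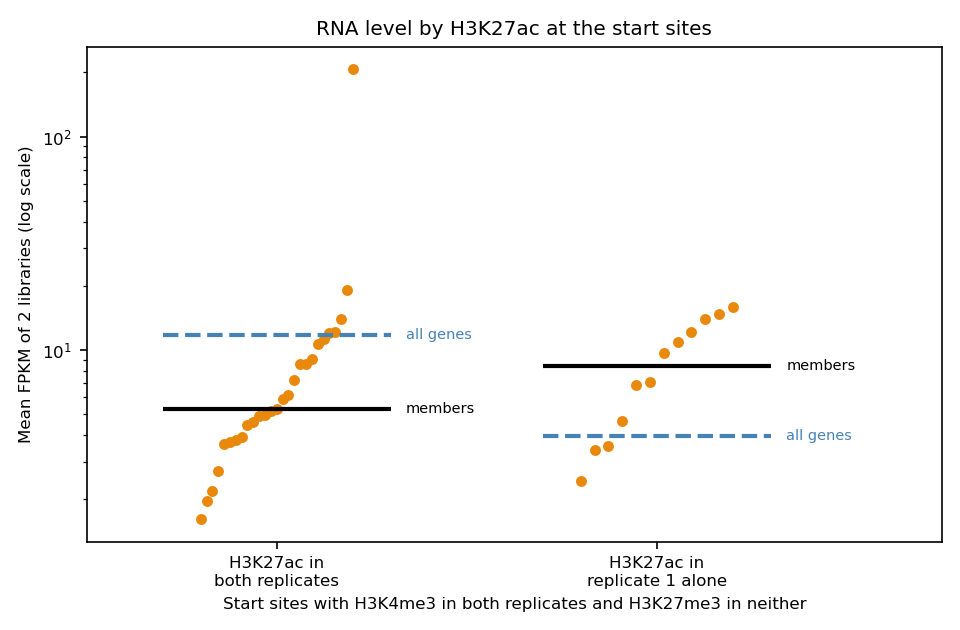
Mean FPKM of 2 libraries (log scale) for genes with H3K4me3 in both replicates and H3K27me3 in neither, by whether H3K27ac was called in both replicates (27 genes) or in replicate 1 alone (12 genes). Each point is a gene, black lines are the medians of these genes (5.28 and 8.42) and dashed lines the medians of all protein-coding genes of the same pattern (11.8 and 3.97).

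Peaks at these start sites were slightly narrower than at other genes. The widest H3K4me3 peak near a TSS had a median width of 2218 bp in replicate 1 and 1192 bp in replicate 2, beside 2300 and 1403 bp over all genes with such a peak. For H3K27ac the medians were 1774 and 694 bp, beside 2096 and 967 bp. The values of the 2 replicates differ more from each other than these genes do from all genes.

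ZNF423 was the only gene of the 42 with H3K4me3 and H3K27me3 in both replicates, a combination found at 7.02% of all protein-coding genes. Its canonical TSS, at position 49890023 of chromosome 16, lay in an H3K4me3 peak of 3173 bp in replicate 1 and 4352 bp in replicate 2. H3K27me3 peaks flanked it on both sides. Downstream, the gap to the nearest was 1429 bp in replicate 1 and 1252 bp in replicate 2. Upstream, peaks of 3675 and 2928 bp began 5 bp from another TSS of the gene in replicate 1 and covered it in replicate 2. With the downstream flanking peaks included, 31 H3K27me3 peaks in replicate 1 and 25 in replicate 2 lay inside the gene beyond 1 kb of any TSS and covered 12.9% and 4.11% of its 370 kb. Of the 25, 11 overlapped one of replicate 1. H3K4me3 replicate 2 also had 36 peaks inside the gene, none of them overlapping one of replicate 1, and H3K27ac had a single peak of 797 bp near the TSS in replicate 1 and none in replicate 2. Genes with this pair of marks had a median FPKM of 0.178 over 1380 genes.

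PKHD1 had no peak of any mark in any replicate within 1 kb of its TSSs, as did 15.1% of all protein-coding genes, whose median FPKM was 0. The nearest H3K4me3 peaks were 37298 and 159720 bp from its canonical TSS, and the nearest H3K27ac peaks 35913 and 35148 bp. Over its 472 kb there were 3 H3K27me3 peaks in replicate 1, which covered 0.294% of the gene, and none in replicate 2. These genes, both listed at 0 in the RNA files, thus differed in their marks, with many H3K27me3 peaks across ZNF423 and few peaks across PKHD1.

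CC2D2A, a transition zone gene mutated in Joubert and Meckel syndromes, had different marks at different starts. Its canonical TSS, at position 15471506 of chromosome 4, was inside H3K4me3 peaks of 1079 bp in replicate 1 and 458 bp in replicate 2. The nearest H3K27ac peak was 9150 bp from it in replicate 1 and 9365 bp in replicate 2, and the nearest H3K27me3 peak 1418 and 1274 bp. This nearest H3K27me3 peak of replicate 1, at chr4:15472924-15473785, overlapped one of replicate 2 at chr4:15472866-15473437. It lay 1287 bp from any TSS, so it was not the peak counted within 1 kb. That one, at chr4:15475639-15476721 in replicate 1, was 818 bp from a TSS and overlapped no peak of replicate 2. The replicate 2 peak at 1274 bp was a different one. At a second start, further into the gene, H3K4me3 peaks at chr4:15480695-15481910 and chr4:15480806-15481523 coincided with H3K27ac peaks at chr4:15480656-15481891 and chr4:15480871-15481442. With a window of 2 kb CC2D2A counted as a second gene with H3K27me3 in both replicates. Its RNA was split too, since the transcript of highest FPKM is typed as a target of nonsense-mediated decay, with 51.1% of the gene's FPKM in library 1 and 29% in library 2. Protein-coding transcripts had 22.9% and 56.1%, so the libraries disagreed on this share.

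DCDC2 (ENSG00000146038, chr6:24171983-24358287, minus strand) stood apart for H3K27ac inside the gene. Its TSS had H3K4me3 in both replicates and an H3K27ac peak of 4207 bp in replicate 1, and none in replicate 2. Beyond 1 kb of any TSS, the gene held 11 H3K27ac peaks in each replicate. All 11 of replicate 2 overlapped a peak of replicate 1, and the peaks covered 16.9% of the 186 kb in replicate 1 and 3.86% in replicate 2. The peaks of replicate 2 lay from 14970 to 73807 bp from the nearest TSS. The widest of replicate 1, at chr6:24327776-24335401, spanned 7626 bp and held 4 separate peaks of replicate 2. An H3K27ac peak inside the gene in both replicates, by this definition, was found in 11 of the 42 genes (26.2%), beside 20.4% of all protein-coding genes. Among replicate 2 peaks that overlapped one of replicate 1, the next number among the 42 was 3, at NEK8, while in replicate 1 by itself PKD1 had 5 and INVS 4. By the same count of overlapping peaks, 156 protein-coding genes (0.794%) had as many as DCDC2 or more. Longer genes have more room for such peaks, and no allowance was made for length.

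Several start sites were shared with a neighbour. A TSS of another protein-coding gene on the opposite strand lay within 1 kb of a TSS for 13 of the 42 genes (31%), beside 17.6% of all protein-coding genes. Beside 58.8% of all protein-coding genes, 11 of the 14 neighbours reached an FPKM of 1 in both libraries. They were ERP44 beside INVS, TLCD1 beside NEK8, KCNAB2 beside NPHP4, EAF2 beside IQCB1, TMTC3 beside CEP290, FTO beside RPGRIP1L, MAPK7 beside B9D1, CEP170 beside SDCCAG8, TRAPPC2 beside OFD1, CRAMP1 beside IFT140 and RP9 beside BBS9. The 3 below that level were LPO beside MKS1, HIGD2B beside BBS4 and TMEM204, the second neighbour of IFT140. BBS5 shares its TSS with a readthrough gene on its own strand, ENSG00000251569, which was listed at 0. A peak within 1 kb of the TSSs of both genes is counted for both. Not all pairs had the same marks, since TMEM204 had no peak of any mark although one of its TSSs lay 172 bp from one of IFT140, and LPO had H3K27me3 in both replicates and MKS1 in neither. The neighbour was the more abundant of the pair at INVS and ERP44, the latter at 13 and 14.9, and the less abundant at IQCB1 and EAF2, the latter at 2.91 and 2.26. Exons of 16 of the 42 genes overlap those of another protein-coding gene, 3 of them (BBS1, BBS2 and BBS5) on the same strand. Such overlaps were not counted over all protein-coding genes, so whether 16 is many is not known.

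The gene totals did not all stand for protein-coding RNA. Of the 40 genes with an FPKM of at least 1, the highest transcript carried a type in GENCODE 44 for 37, and 32 of these were protein-coding. For 39 genes, a share of FPKM in protein-coding transcripts could be computed over the transcripts with a type. Its median was 81.2%, it was at least 50% in 32 genes and under 50% in 7: BBS1, PKD1, CC2D2A, BBS2, BBS4, OFD1 and WDR19. BBS10 has a single transcript, whose identifier is not in that version, and was left out. Transcripts without a type also had part of the FPKM of some other genes. In CEP83, coding transcripts had 1.65 and 1.21 of a gene total of 3.66 and 3.62. Types and shares were not computed over all protein-coding genes, so whether the 42 genes differ from them is not known.

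In WDR19 the coding share was 23.5% in library 1 and 16.3% in library 2, and transcripts that keep an intron had 65.6% and 71.5%. BBS2 was alike, with 40.5% and 27% coding and 53.4% and 65.5% with a retained intron. The BBS2 transcript of highest FPKM, of 716 bases, had 27.6% of the gene in library 1 and 47.6% in library 2, and BBS2 was also the gene with the largest fold between libraries among the 40. PKD1 had 40% and 40.3% coding and 40.4% and 42.7% with a retained intron. In OFD1 the coding share was 29.8% and 20.1%, and its highest transcript has no defined coding sequence, while BBS4, with 30% and 26.2%, was led by a target of nonsense-mediated decay. At the other end, KIF3B, GLIS2, DCDC2, BBS12 and CEP290 were wholly protein-coding in both libraries. Total RNA holds unspliced RNA as well, and StringTie had to divide reads among overlapping transcripts, so these shares are estimates and their part in each gene's level was not tested.

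**Figure D4:**
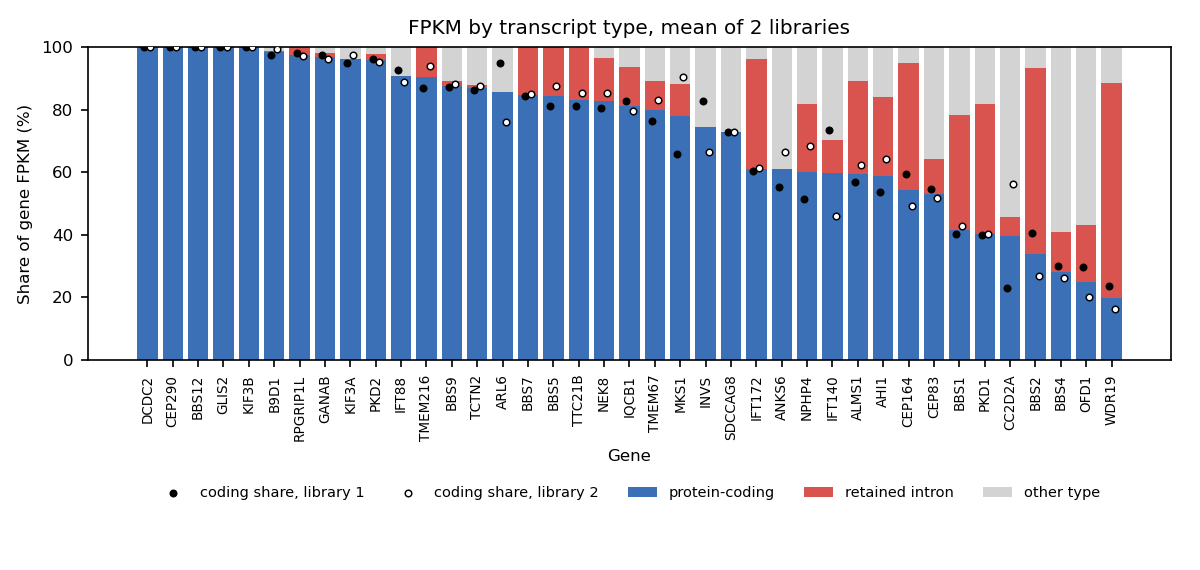
Share (%) of the FPKM of transcripts with a type in protein-coding transcripts (blue), transcripts with a retained intron (red) and other types (grey). Transcripts without a type are left out of the total. Bars are the mean of 2 libraries for 39 genes, and filled and open dots give the coding share in libraries 1 and 2. The coding share is near 100% at the left and under 50% in the 7 genes at the right, ending with WDR19.

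Other genes of the pathway, taken as lists of 60 genes, looked much like the 42. All 60 reached an FPKM of 1 in both libraries and had H3K4me3 at a TSS in both replicates, with a median FPKM of 7.54. H3K27ac was present in both replicates at 45, and H3K27me3 in both at none, with LZTFL1 marked in replicate 1 alone and LRP5 in replicate 2 alone. Among other transition zone genes TCTN3 was highest, at 26.8 and 22.4. The highest and lowest for intraflagellar transport were HSPB11 at 39 and 39.6 and TTC30A at 1 and 1.02, and for ciliary membrane genes MKKS at 74.4 and 84.8 and BBIP1 at 5.21 and 5.09. Distal appendage and centriole genes ran from KIF24 at 1.78 and 1.97 to CEP89 at 6.81 and 8.23. The polycystic liver and kidney genes were led by PRKCSH, the other subunit of the glucosidase that GANAB belongs to, at 161 and 141, with LRP5 lowest at 8.38 and 7.25. Both glucosidase subunits were thus at 141 or above in each library, where neither polycystin exceeded 13.9.

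Genes of motile cilia, which beat and are typical of airway and ependymal cells, had lower values in the same libraries. Of 21 such genes with a position in the annotation, 5 reached an FPKM of 1 in both libraries, and the median was 0.216. The highest was SPAG16 at 4.09 and 6.04, and DNAI2 and TEKT1 were listed at 0. H3K4me3 was present in both replicates at 15, H3K27ac at 7 and H3K27me3 at 5 (DNAH11, DNAI2, HYDIN, SPAG6 and TEKT1). FOXJ1, the master regulator of motile ciliogenesis, was at 0.488 and 0.416. Among the RFX factors, RFX1, RFX2, RFX5 and RFX7 reached an FPKM of 1, with RFX5 highest at 12 and 21.2. These levels do not show which of the factors act on ciliary genes. RFX3 was at 0.666 and 0.717, and RFX4 and RFX6 were listed at 0 with H3K27me3 in both replicates.

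**Figure D5:**
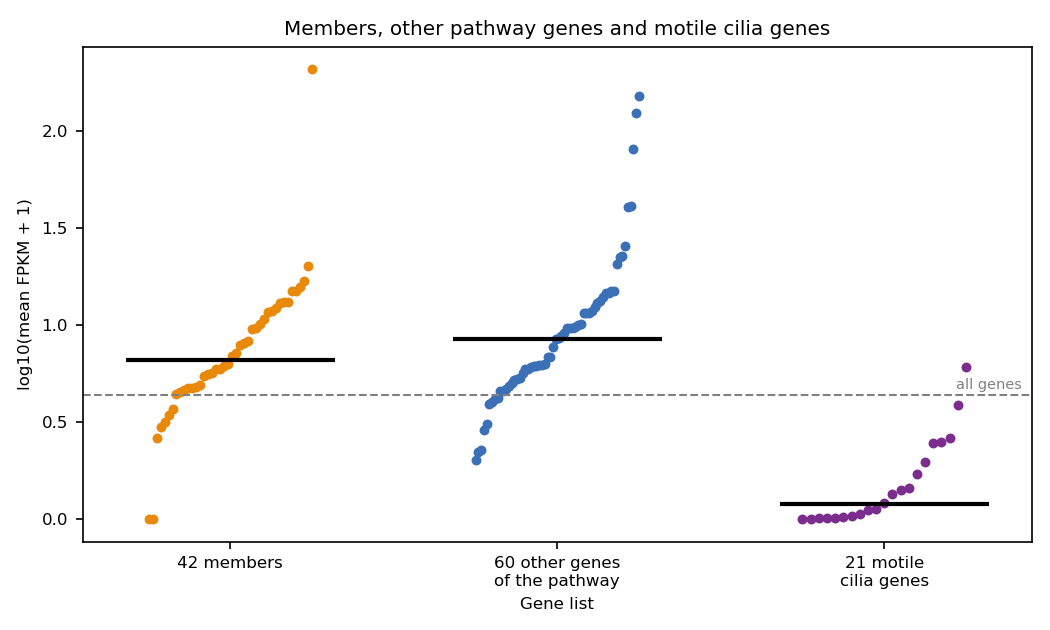
Each point is a gene, at log10(mean FPKM + 1), for the 42 genes, 60 other genes of the pathway and 21 motile cilia genes. Black lines are the medians (0.82, 0.93 and 0.08) and the dashed line is the median of all protein-coding genes (0.64).

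The label of the cells was checked against marker genes. Of 10 proximal tubule genes, 3 reached an FPKM of 1 in both libraries. These were GGT1 at 64.1 and 58.1, DPP4 at 28.7 and 32.5, and SLC5A2 at 1.56 and 2.36. LRP2, HNF4A and SLC22A6 were listed at 0. The 10 genes summed to an FPKM of 95 and 93.3. Epithelial genes were led by KRT8 at 179 and 184. KRT19 was at 123 in each library, KRT18 at 68 and 44.2 and EPCAM at 39.9 and 41.4, with the cadherin CDH1 at 0.21 and 0.283. Mesenchymal genes were led by FN1 at 2333 and 2343. The highest podocyte gene was SYNPO at 14.7 and 16.2, the highest leukocyte gene CD68 at 42.5 and 36.8 with PTPRC and CD3E at 0, and the highest multiciliated cell gene MCIDAS at 1.46 and 1.49. Markers of the distal nephron, collecting duct and endothelium were highest at SLC12A3 (0.044 and 0.0827), AQP3 (0.672 and 0.528) and CDH5 (0 and 0.0404), all under 1. Only 3 of the 10 listed proximal tubule genes thus reached an FPKM of 1, and the levels of the 42 genes are those of this line.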

How the data were processed

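HK2 cells were profiled by RNA-seq in 2 libraries and by ChIP-seq of 3 histone marks in 2 replicates each. In the labels, the replicates taken as number 1 of each mark carry no number. ChIP-seq reads had been aligned to hg19 by the authors (Bowtie2, unique matches only) before MACS2 peak calling per replicate. The deposited lists give positions only, without score, height or reads per peak. The study states aligned read totals and the fraction of reads in peaks per replicate, which were not used in any computation here. RNA-seq reads had been mapped by the authors with HISAT2, and the deposited files hold FPKM, TPM and coverage values per transcript from StringTie 1.3.3. The study names hg19 for the mapping, while the file headers name GENCODE 27, whose coordinates are those of GRCh38. Genes were therefore joined by Ensembl identifier, and GRCh38 positions were never set against peaks. HiChIP and input DNA were not analysed here.

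FPKM was summed over the transcripts of each gene. TSSs, gene and transcript types and canonical transcripts came from GENCODE 44 mapped to GRCh37. A mark was present where a peak lay within 1 kb of any TSS of the gene. Sequences came from RefSeq (GRCh38.p14) and GRCh37. The search for peaks near TSSs was tested on simulated peaks. Scripts used pandas 2.3.3 and numpy 2.4.6 under Python 3.11.15, and figures matplotlib 3.10.9. With 1 condition, values are described beside those of 19645 protein-coding genes, with no test. Named genes were all 42 members, the highest and lowest gene of each other list, and every listed gene with H3K27me3 in both replicates. Neighbours with a TSS within 1 kb and the highest gene of each marker list were named too, with some further markers. Some genes that this rule names are not reported here. The coverage of PKD1 exons and pseudogenes was added after values were seen. The members and lists were chosen with earlier results of these data known. Alternatives changed the FPKM limit, unit, pseudocount, filter on low values, transcript choice, TSS window, TSS set, peak width and replicates.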

Additional observations from a re-analysis of the deposited data

How the results depend on the processing

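The 6 results were recomputed under alternatives that gave 40 values, of which 34 stayed within the allowed range. That range was 1.5-fold either way for a count, and the SD between libraries for the median level. It was wide, since 41 genes in place of 28 for H3K27ac lay inside it. So did 39 in place of 27 for the active pattern. Counts of 40 and 41 of the 42 genes could not have left it upward. The median log10(FPKM + 1) of the 42 genes, 0.82 with a spread of 0.04 (SD of the medians of 2 libraries), was 0.76 with a pseudocount of 0.1, 1.22 with TPM and 0.59 with the leading transcript. The median of all protein-coding genes went from 0.64 to 0.53, 1.01 and 0.44 and stayed below that of the 42. With genes under a mean FPKM of 0.1 left out, the 42 genes had 0.85 and all genes 0.97, so their order was the reverse. The value of 0.85 was still counted as within the range. The single gene with H3K27me3 in both replicates became 2, with CC2D2A added, with a window of 2 kb, with peaks of either replicate and without ChIP-seq replicate 2. Without a ChIP-seq replicate the counts ran from 1 to 2 for H3K27me3, 28 to 41 for H3K27ac, 28 to 39 for the active pattern and stayed at 41 for H3K4me3. Without an RNA-seq library, 40 genes still reached an FPKM of 1, and the median ran from 0.80 to 0.85. The fewest genes at that level, 34, came from the leading transcript alone. With peaks of at least 500 bp, 23 genes had H3K27ac in both replicates. No paired analysis was possible because 1 condition was studied and no test compared groups. The peak lists give no reads per peak, so no precision can be given for a peak, and the RNA files no read counts.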

Other observations

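Among RFX2, RFX5, RFX1 and RFX7, the factors of that family at 1 FPKM or more, RFX5 differed most between libraries, at 12 and 21.2. Of all protein-coding genes, 3849 were listed at 0 in both libraries, and 72 of these had H3K4me3 and H3K27ac in both replicates with H3K27me3 in neither. PKHD1 and ZNF423 were not among the 72. SLC12A1, a transporter of the loop of Henle, was listed at 0 with H3K4me3 and H3K27ac in both replicates. CD68 had no H3K4me3 peak within 1 kb of a TSS in either replicate at an FPKM of 42.5 and 36.8.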
